A study of Rattus norvegicus with 6 samples.

Results

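Elastin, the fibrillar collagens and the proteins that assemble and cross-link them make up the load-bearing matrix of the aortic wall. A set of 10 such genes was chosen by name: Eln, Lox, Fbn1, Fn1, Col1a1, Col1a2, Col3a1, Col5a2, Col12a1 and Serpinh1. Of these, 9 had at least 1 probe set carrying that single gene symbol in the platform annotation, among 4736 genes so named on the array, and Fbn1, fibrillin, was not analysed here. The 9 genes were read by 20 probe sets, and all 20 passed the filter on dim signals. Aortic RNA came from spontaneously hypertensive rats (SHR), bred for a blood pressure that climbs with age. Runners used a wheel in the cage, at will, for 5 weeks, and non-runners were SHR that did not run; what cages the non-runners had is not given in the labels. Each group had 3 Affymetrix rat arrays, called A, B and C, and 1 array carried RNA of 3 pooled aortae. In the labels, runner arrays A, B and C also carry the letters D, E and F, and no pairing between groups is stated. Nothing in the labels gives age, sex or how animals were shared among pools, so p-values measure only the spread between these pools, which may in part be technical.

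Smooth muscle cells lay down elastin mainly during growth, as tropoelastin that lysyl oxidase (Lox) cross-links into lamellae on a scaffold of microfibrils. Type I and type III collagen, made by smooth muscle cells and adventitial fibroblasts, bear the load when the wall is stretched far. Collagen chains fold in the endoplasmic reticulum with the help of Serpinh1, a collagen-specific chaperone. In hypertension the arterial wall is known to thicken and to gain matrix.

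No difference between runners and non-runners passed the test in any of the 9 genes. Log2 differences (runner minus non-runner) of the brightest probe set of each gene ran from -0.07 for Lox to 0.16 for Col1a1, with a median of 0.02, against -0.02 over the 3173 genes tested. That median is the value of Col12a1, which lay on all arrays below the control level of 40.8, the 95th percentile of intensity among 19 probe sets against yeast and sense-strand sequences. Over the other 8 genes the median was 0.01, with 4 differences above 0 and 4 below. By limma with Benjamini-Hochberg adjustment over all probe sets, 0 of the 20 probe sets passed 0.05, and so did 0% of the 5244 tested. Adjusted p of the 20 lay between 0.585 and 0.976. Without non-runner B, described next, the median over those 8 genes was 0.14, with 7 differences above 0 and again 0 passing, against a median of -0.0021 over 3142 genes, of which 1557 were above 0. Before adjustment, p was under 0.05 for 2 of the 20, both higher in runners, where 8.07% of all probe sets reached it (3.83% higher and 4.23% lower). The 95% intervals of the 9 brightest probe sets together spanned 0.699-fold to 1.41-fold, and differences inside that range were not resolved with these arrays. As RNA came from whole tissue, fewer cells of a type and less RNA per cell cannot be told apart.

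**Figure D1:**
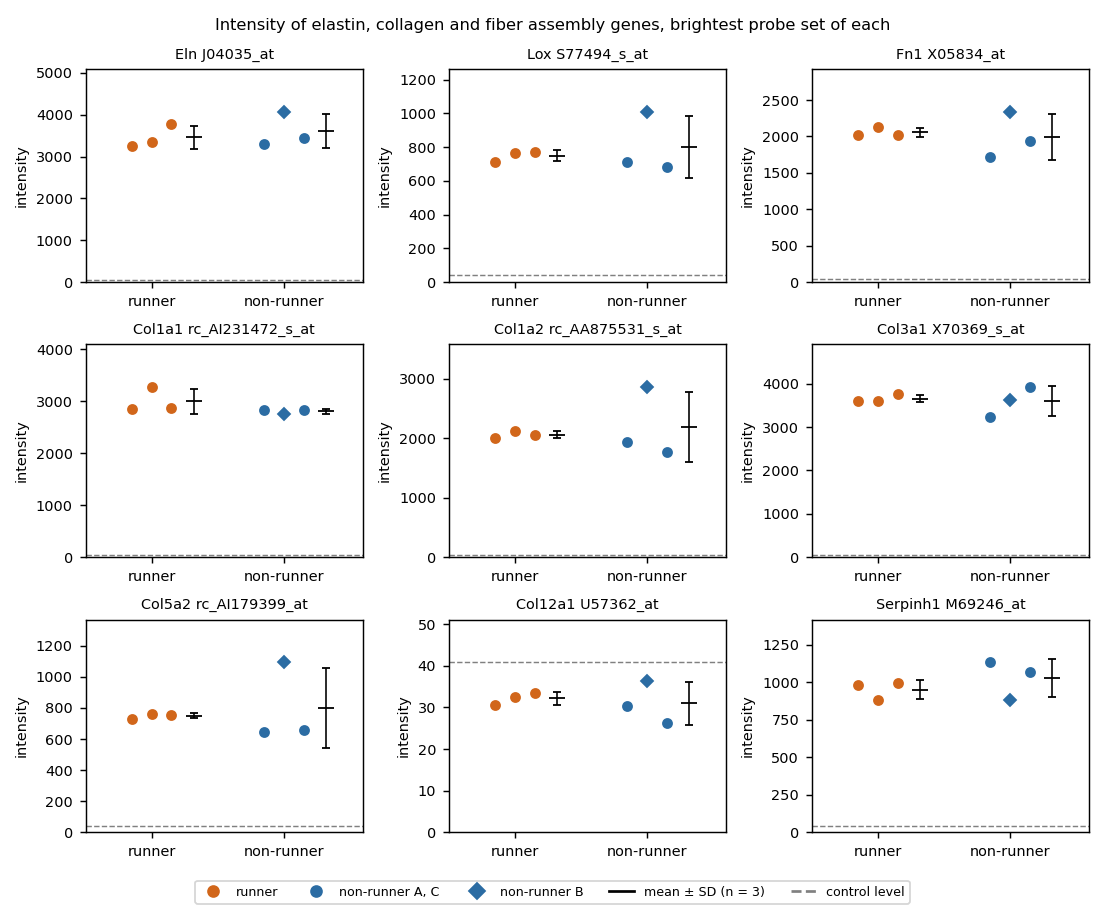
Intensity (linear scale, from 0) of the brightest probe set of each of 9 genes on 3 runner and 3 non-runner arrays, with the mean and SD of each group and the control level of 40.8 as a dashed line. The groups overlap in all panels but that of Col1a1, and non-runner B is the highest array for Eln, Lox, Fn1, Col1a2, Col5a2 and Col12a1.

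Non-runner B stood apart, and its values touch most results below. The 3'/5' intensity ratio of a control transcript grows as signal from its 5' end is lost. For beta-actin this ratio was 1.30, 1.43 and 1.22 on runner arrays A, B and C, and 1.28, 2.14 and 1.67 on the non-runner arrays. The array also carries probe sets for bacterial control transcripts, which are not aortic RNA. On non-runner B their ratio was 3.17 for LysX, 3.00 for PheX, 6.32 for ThrX and 2.40 for TrpnX. On the other arrays it was 2.18 to 2.24 for LysX, 1.68 to 1.93 for PheX, 3.65 to 3.84 for ThrX and 1.18 to 1.54 for TrpnX. The ratio was therefore higher on non-runner B for transcripts of the rat and of the bacterial controls. Between groups, the exact two-sided permutation p was 0.1 for GAPDH, the smallest that 3 against 3 arrays allows, and 0.3 or more for the other 5 transcripts (Benjamini-Hochberg adjusted p of 0.6 or more for all 6). Non-runner B was the highest or the lowest of the 6 arrays in 16 of the 20 probe sets of the matrix genes, 9 times highest and 7 times lowest, and in 58.1% of all probe sets tested.

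**Figure D2:**
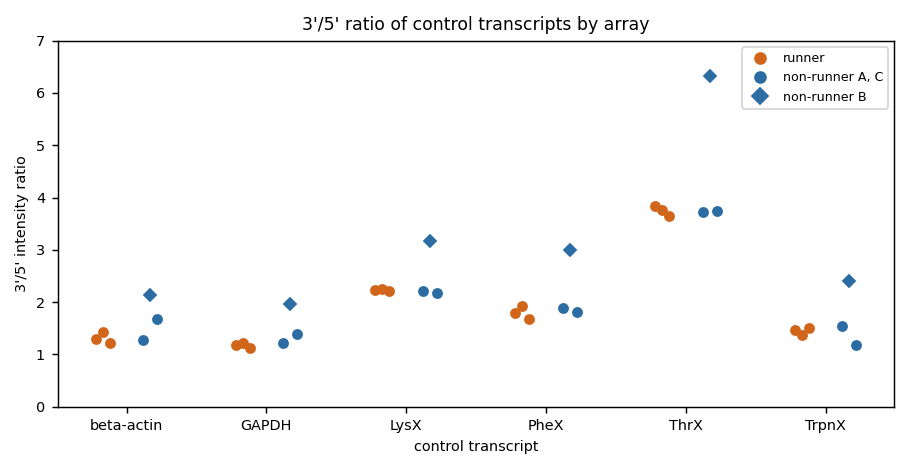
Ratio of the 3' to the 5' probe set intensity (linear axis from 0) for 2 rat and 4 bacterial control transcripts, with a point per array. Non-runner B is the highest point for each of the 6 transcripts.

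Eln encodes tropoelastin, the monomer of the elastic lamellae. Its probe set, J04035_at, measured 3257, 3351 and 3775 on runner arrays A, B and C, and 3306, 4067 and 3450 on non-runner arrays A, B and C. The groups overlapped, and non-runner B was the highest array. The difference was 0.05 ± 0.15 (log2, SE, limma adjusted p = 0.951), and its 95% interval ran from 0.811-fold to 1.31-fold. Its sign depended on the scaling: it was -0.06 without quantile normalization and -0.11 with median centring.

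Lox, the enzyme that oxidizes lysines of elastin and collagen so that they cross-link, was read by 4 probe sets that did not move alike. The probe set rc_AI234060_s_at measured 389, 420 and 402 on the runner arrays and 305, 264 and 339 on the non-runner arrays. Every runner value lay above every non-runner value, and the difference was 0.41 ± 0.16 (log2, SE; a 1.33-fold difference). Its unadjusted p was 0.0289 and limma's adjusted p 0.585.

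The probe set S66184_s_at measured 742, 855 and 750 on the runner arrays and 560, 601 and 739 on the non-runner arrays. These groups did not overlap either, though runner A at 742 and non-runner C at 739 nearly met (0.32 ± 0.16, log2, SE, limma adjusted p = 0.65). The brightest, S77494_s_at, measured 711, 768 and 769 on the runner arrays, against 713, 1009 and 680 on the non-runner arrays. There the groups overlapped, and non-runner B alone lay above the rest (-0.07 ± 0.18, log2, SE). The dimmest, rc_AA875582_at, was also highest on non-runner B, at 86.4 against 42.9 to 67.4 elsewhere. Without non-runner B, the 4 differences were 0.32, 0.29, 0.09 and 0.08, all above 0 and 0 passing limma's test. The direction of the 4 probe sets was the same under each scaling.

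Among the type I collagen chains, Col1a1 was read by 4 probe sets and Col1a2 by 1. The brightest for Col1a1, rc_AI231472_s_at, measured 2851, 3270 and 2869 on the runner arrays and 2825, 2751 and 2832 on the non-runner arrays. The groups did not overlap, but runners A and C exceeded non-runner C by little (0.16 ± 0.14, log2, SE, limma adjusted p = 0.784). Z78279_at measured 1405, 1389 and 1217 on the runner arrays, against 1274, 787 and 878 on the non-runner arrays. Here non-runner A overlapped the runners (0.49 ± 0.21, log2, SE, unadjusted p = 0.0452, limma adjusted p = 0.606, and 0.35 ± 0.20 without non-runner B).

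The related probe set Z78279_g_at, whose name carries the same sequence accession, measured 1794, 2046 and 1824 on the runner arrays and 2117, 2493 and 1693 on the non-runner arrays. Non-runner B was the lowest array for Z78279_at and the highest for Z78279_g_at. The difference of Z78279_g_at was -0.10 ± 0.18, and that of M27207mRNA_s_at 0.04 ± 0.14 (log2, SE), with a sign that turned to -0.04 under median centring.

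Col1a2 encodes the other chain of type I collagen. Its probe set, rc_AA875531_s_at, measured 2008, 2125 and 2060 on the runner arrays and 1934, 2864 and 1775 on the non-runner arrays. Runners lay between non-runner A and non-runner B. The difference was -0.03 ± 0.20 with all arrays and 0.16 ± 0.13 without non-runner B (log2, SE, limma adjusted p = 0.976 and 0.82). The promoter is shown because transcription of the type I collagen genes is known to depend on a CCAAT-binding factor. RefSeq's tables held promoter windows for 4 of the 10 genes, Col1a2, Col5a2, Fbn1 and Serpinh1. The Col1a2 window below comes from GRCr8, chr4:33518307-33518406, plus strand, and covers bases -250 to -151 from the annotated start, which opens with an ATG. Capitals mark a CCAAT box (CCAAT, here on the opposite strand, at -221 to -217) and a TATA box (TATAAA, at -170 to -165).
Col1a2: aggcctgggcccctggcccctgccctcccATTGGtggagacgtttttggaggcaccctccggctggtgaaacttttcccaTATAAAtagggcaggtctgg
Over the 250 bases before the start and both strands, 34% of the 33469 promoters in the table held CCAAT and 12.9% held TATAAA. Neither was found in the windows of Col5a2 or Serpinh1.

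Col3a1, the chain of type III collagen, which is abundant in distensible vessels, was read by 2 probe sets. X70369_s_at measured 3611, 3606 and 3754 on the runner arrays and 3237, 3628 and 3924 on the non-runner arrays. The runners fell inside the range of the non-runners, with 0.14 ± 0.14 (log2, SE, limma adjusted p = 0.808), a sign that turned to -0.02 with median centring. M21354_s_at measured 2637, 3166 and 2953 on the runner arrays, against 2592, 2391 and 2728 on the non-runner arrays. Only runner A overlapped the non-runners (0.26 ± 0.15, log2, SE, limma adjusted p = 0.701).

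Col5a2, a chain of the type V collagen that starts and limits the width of collagen fibrils, shared with Col1a2 its highest value on non-runner B. It measured 730, 763 and 758 on the runner arrays and 648, 1094 and 658 on the non-runner arrays. Non-runner B exceeded every other array, while non-runners A and C lay below the runners. The difference was -0.03 ± 0.21 with all arrays and 0.21 ± 0.12 without non-runner B (log2, SE, limma adjusted p = 0.976 and 0.749). Col12a1, of a collagen that sits on the surface of fibrils, measured 30.5, 32.5 and 33.4 on the runner arrays and 30.3, 36.4 and 26.2 on the non-runner arrays. All 6 values lay below the control level, so its difference has no direction to read.

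Fn1, fibronectin, which cells assemble into fibrils that guide collagen deposition, was read by 5 probe sets. The brightest, X05834_at, measured 2016, 2133 and 2015 on the runner arrays and 1717, 2338 and 1931 on the non-runner arrays (0.11 ± 0.15, log2, SE, limma adjusted p = 0.855). Its groups overlapped, with non-runner B highest. U82612cds_g_at measured 361, 388 and 407 on the runner arrays, against 391, 177 and 416 on the non-runner arrays. There non-runner B was the lowest array, and the other 5 lay within 361 to 416. The difference with all arrays was 0.33 ± 0.31 (log2, SE, limma adjusted p = 0.791).

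The dim Fn1 probe sets differed by 0.55 ± 0.37 for M28259cds_at and 0.08 ± 0.23 for U82612cds_at (log2, SE). X05831cds_at, at 9.5 to 27.6, lay below the control level on every array. With non-runner B left out, U82612cds_g_at differed by -0.06, U82612cds_at by -0.06 and M28259cds_at by 0.21. On non-runner B, normalized log2 levels stood at -1.35 (M28259cds_at), -1.15 (U82612cds_g_at) and -0.47 (U82612cds_at) from the median of the other arrays, and at 0.08 for X05834_at. Non-runner B was the lowest array for M28259cds_at and U82612cds_g_at, runner A was lowest for U82612cds_at, and the brightest probe set was highest on non-runner B.

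**Figure D3:**
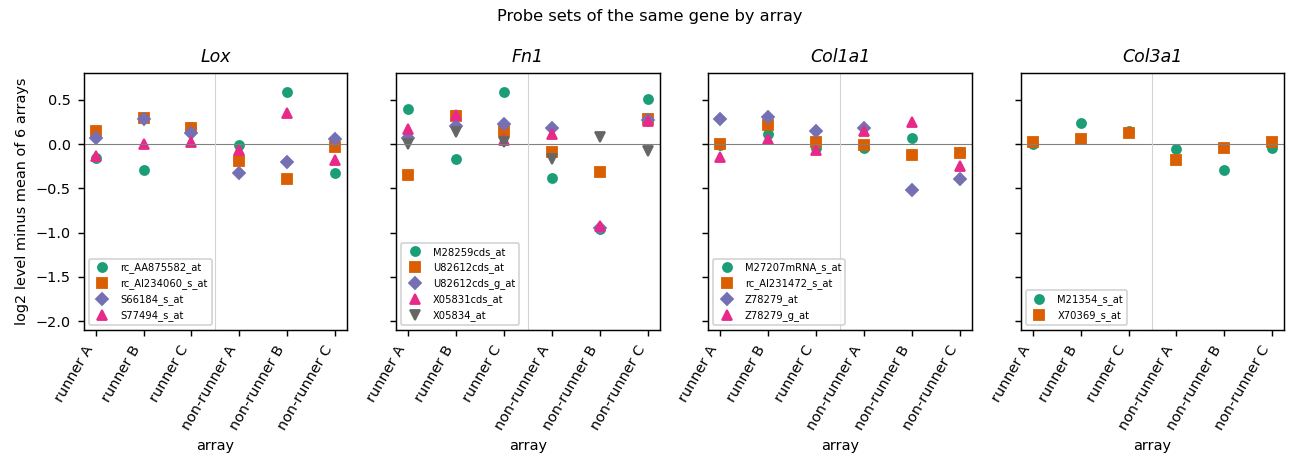
Log2 level of each probe set minus its mean over the 6 arrays, for the 4 genes with several probe sets, by array. On non-runner B the probe sets of Lox, Fn1 and Col1a1 spread apart. For Fn1, 3 of 5 are lowest there, 1 of them (X05831cds_at) below the control level on all arrays.

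Serpinh1, the collagen chaperone of the endoplasmic reticulum, belongs by its induction to the heat shock proteins. It measured 979, 880 and 994 on the runner arrays and 1133, 884 and 1066 on the non-runner arrays. The groups overlapped, with runner B and non-runner B lowest. The difference was -0.07 ± 0.16 with all arrays and -0.18 ± 0.14 without non-runner B (log2, SE, limma adjusted p = 0.927 and 0.792). Its promoter is shown for the heat shock element, the site of heat shock factor. The window lies at GRCr8 chr1:163062977-163063076, minus strand, bases -100 to -1 from the RefSeq start. Capitals mark the match, at -35 to -23, to the triplets TTC, GAA and TTC, each spaced by 2 bases of any kind.
Serpinh1: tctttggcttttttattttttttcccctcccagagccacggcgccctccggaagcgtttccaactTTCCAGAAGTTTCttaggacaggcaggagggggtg
That element stood in 0.663% of all promoters searched, over both strands, and a GC box (GGGCGG), held by 30.5% of them, lay further upstream at -129 to -124.

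**Figure D4:**
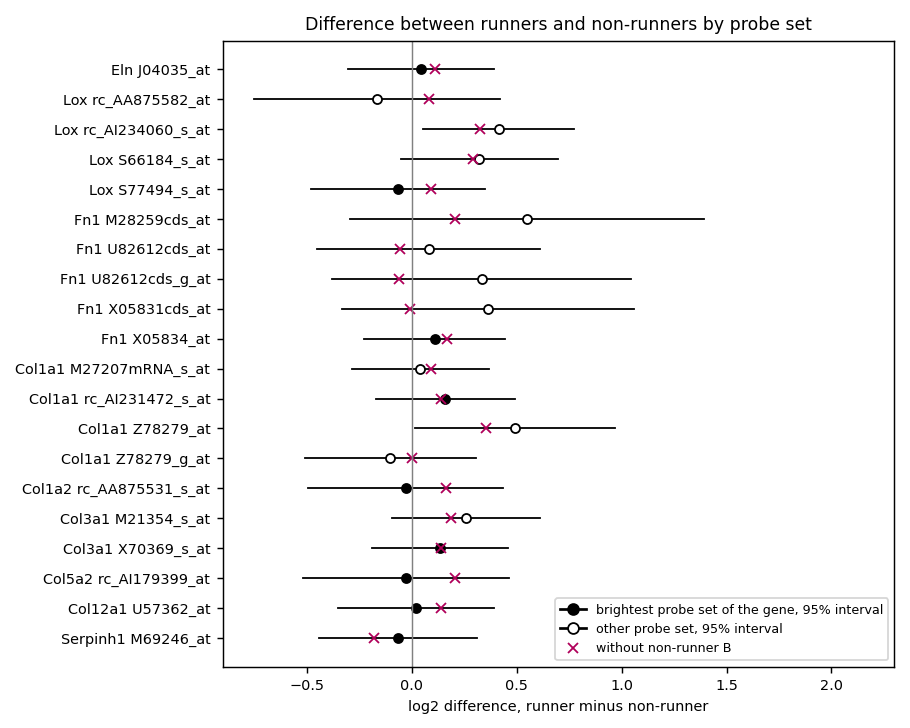
Log2 difference, runner minus non-runner, of the 20 probe sets, with 95% intervals from limma. Filled circles are the brightest probe set of a gene, open circles the others, and crosses the value without non-runner B. The intervals of rc_AI234060_s_at (Lox) and Z78279_at (Col1a1) leave out 0 before adjustment.

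Groups did not overlap in 3 of the 20 probe sets, all higher in runners (2 of Lox and 1 of Col1a1) and 0 lower, where 7.36% of all probe sets were higher and 7.49% lower in this sense. By brightest probe set this held for 1 of the 9 genes, Col1a1, and for 6.15% of all genes higher and 8.1% lower. Over all probe sets, the SD of log2 differences was 0.36 to 0.38 between runner arrays and 0.38 between non-runners A and C, against 0.56 to 0.61 for pairs with non-runner B.

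Other genes of matrix fiber assembly were followed through a list of 70 genes, of which 30 were on the array and 26 were tested. By limma, 0 passed adjusted over all probe sets. By brightest probe set and before adjustment, limma's p was under 0.05 for 2 genes, both lower in runners (Col15a1 and P4ha1). Of all genes, 2.93% were higher and 4.48% lower in this sense. Among the other probe sets, M21476_s_at of P4hb was higher at such a p. D89730_g_at of Efemp1, below the control level on all arrays, was lower. The median log2 difference of the 26 was -0.03, and 0.05 without non-runner B. Above 0 were 4 of 5 other collagens, 3 of 6 elastic fiber partners and 3 of 7 fibril-binding genes, against 1465 of the 3173 genes tested.

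Col15a1, a collagen of the basement membrane zone, measured 540, 546 and 465 on the runner arrays and 669, 1135 and 825 on the non-runner arrays. All runners lay below all non-runners (-0.70 ± 0.20, log2, SE, limma adjusted p = 0.469, and -0.51 ± 0.15 without non-runner B). P4ha1, a subunit of the prolyl hydroxylase that stabilizes the collagen helix, measured 318, 342 and 291 on the runner arrays, against 432, 418 and 481 on the non-runner arrays. These groups were also apart, with non-runner B inside its group (-0.48 ± 0.14, log2, SE, limma adjusted p = 0.498, and -0.52 ± 0.14 without non-runner B). By brightest probe set, 7 of the 8 collagen processing genes tested had a difference below 0 and 1 above, against 1708 of 3173 genes below 0. Their median was -0.08, and -0.07 without non-runner B, where 6 were below 0, and 1 (P4ha1) had an unadjusted p under 0.05. These counts depended on the probe set. P4hb stood at -0.03 on its brightest, 0.03 on X02918_g_at and 0.83 ± 0.34 on M21476_s_at (log2, SE, limma unadjusted p = 0.0418 and adjusted p = 0.595, and 0.40 without non-runner B). On M21476_s_at every runner lay above every non-runner. The probe sets of Sparc ran from -0.11 to 0.16.

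The next genes by p were Col8a1, Ltbp3, Tnc and Lum. Col8a1, a short-chain collagen of vessels, measured 106, 95.9 and 117 on the runner arrays and 63.0, 56.5 and 104 on the non-runner arrays (0.54 ± 0.24, log2, SE). Ltbp3, which holds latent TGF-beta in the matrix, measured 47.7, 49.2 and 43.3 on the runner arrays and 36.7, 18.6 and 43.5 on the non-runner arrays, near the control level. Tnc, the matricellular protein tenascin-C, measured 11.0, 11.9 and 74.3 on the runner arrays and 74.3, 49.0 and 37.0 on the non-runner arrays. It lay below the control level on runners A and B and on non-runner C. Lum, lumican, a proteoglycan that spaces collagen fibrils, measured 940, 1059 and 815 on the runner arrays, against 792, 816 and 734 on the non-runner arrays (0.28 ± 0.15, log2, SE). Limma's adjusted p for these 4 genes lay between 0.625 and 0.681, and in each the groups overlapped. Ltbp2 had the largest difference above 0 of the list, without overlap (Y12760cds_at, 1.13 ± 0.65, log2, SE, limma adjusted p = 0.694). Non-runner B stood at 22.3 there, against 149 to 200 on the other arrays, and the difference without it was 0.24. AF016901_s_at of Ltbp2, also higher in runners without overlap, lay below the control level on all arrays.

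**Figure D5:**
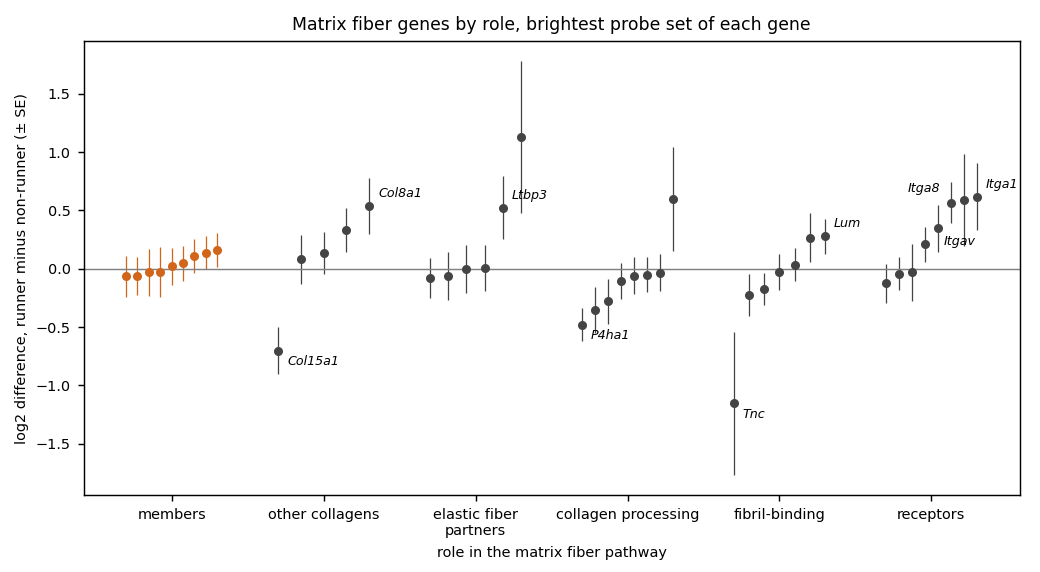
Log2 difference, runner minus non-runner, with SE, of the brightest probe set of each tested gene, by role. The 9 elastin, collagen and assembly genes lie between -0.07 and 0.16, and 0 of the genes drawn had an adjusted p under 0.05.

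Receptors through which cells hold these fibers were read for 8 of 13 listed genes, and 0 passed limma's adjusted test. Itga8, an integrin subunit that pairs in a fibronectin receptor of smooth muscle, measured 396, 411 and 409 on the runner arrays and 311, 218 and 295 on the non-runner arrays. Every runner lay above every non-runner (0.56 ± 0.18, log2, SE, limma adjusted p = 0.516, and 0.41 ± 0.12 without non-runner B). Itga1, the subunit of a collagen receptor, measured 184, 204 and 152 on the runner arrays, against 82.3, 105 and 182 on the non-runner arrays, with overlap at non-runner C (0.62 ± 0.29, log2, SE, limma adjusted p = 0.643). Itgav, another integrin subunit, lay below the control level on all arrays. The probe sets of Ddr1, a collagen receptor, did not move alike. Its brightest, S77585_s_at, differed by -0.12 ± 0.17, and S77556_s_at by -0.15 ± 0.17 (log2, SE). The dimmer L26525_at measured 57.2, 57.1 and 69.4 on the runner arrays. On the non-runner arrays it was below the control level, at 37.9, 20.7 and 31.8 (0.97 ± 0.21, log2, SE, limma unadjusted p = 0.00157 and adjusted p = 0.293, and 0.75 without non-runner B).

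Of 8 smooth muscle markers, 6 were on the array, all above the control level on every array. Their summed intensity was 12137 to 13180 in runners and 12616 to 14497 in non-runners. Of 7 endothelial markers, 5 were read, and Kdr, Vwf and Icam2 lay below the control level on every array. Those 5 summed to 282 to 309 in runners and 198 to 341 in non-runners. Macrophage markers, 4 of 6, summed to 790.5 to 1031.9 in runners and 762 to 938.5 in non-runners, with Itgam below that level throughout. Skeletal muscle markers, 4 of 5, summed to 138.5 to 292.8 in runners and 199.8 to 368.4 in non-runners, with Myh4 below it throughout. Only 2 of the 4 macrophage markers and 1 of the 4 skeletal muscle markers lay above the control level on every array. Fibroblast and adventitial markers, of which 5 of 8 were read, summed to 4856 to 5235 in runners and 5447 to 6084 in non-runners, so these sums did not overlap. Dcn and Lum belong both to these markers and to the pathway list. Dcn gave most of these sums. The brightest of its 4 probe sets measured 3233 to 3334 in runners and 3775 to 4150 in non-runners, while the other 3 overlapped. Lum went the other way, at 815 to 1059 in runners and 734 to 816 in non-runners. By brightest probe set, Pdgfra, Thy1 and S100a4 went with Dcn (log2 differences of -0.43, -0.33 and -0.17). Without non-runner B these were -0.25, -0.32 and -0.10. Of the 5 brightest probe sets, that of Thy1 lay below the control level on 1 array and the others above it on all. Z14118cds_at and Z14118cds_g_at of Pdgfra, below that level on every array, were higher in runners without overlap. Fat markers, of which 6 of 7 were read and Plin1 lay below the control level throughout, summed to 3167 to 3985 in runners and 2651 to 4099 in non-runners. Nerve and Schwann cell markers, 5 of 6, summed to 1007 to 1106 in runners and 1274 to 1541 in non-runners, with Dbh below the control level throughout. Of these 5, only 2 lay above that level on every array. Pmp22 gave most of this sum, at 771 to 814 in runners and 897 to 1170 in non-runners. By brightest probe set, Pmp22, Th and Snap25 were lower in runners without overlap, while S100b and Dbh overlapped. Th lay above the control level on 4 arrays and Snap25 on 1. Among the fibroblast and adventitial markers, Dcn, Pdgfra and S100a4 were lower without overlap, while Lum and Thy1 overlapped. Of all genes, 8.1% were lower in runners in this sense. The part of these cell types in the collagen and elastin values was not tested.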

How the data were processed

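The authors deposited 1 intensity per probe set and array on a linear scale, for 8799 probe sets on 6 arrays, per the values themselves. Which software made them is not given in the sources used; detection calls were not analysed here. The mean without the top and bottom 2% was 99.6 to 99.9 on every array, as scaling to a common target would give. Symbols came from the platform annotation, and only the 7006 probe sets with 1 symbol were named. Before taking log2, 2.4 was added to each intensity, a pseudocount equal to the 10th percentile of the values above 0. They were quantile normalized, since array medians differed by over 10%. After leaving out 59 control probe sets and, of the rest, the 40% with the lowest mean, 5244 were tested with limma 3.58.1 in R 4.3.3 (two-sided, Benjamini-Hochberg, threshold 0.05). The added 2.4 makes log2 differences of dim genes too small. A gene was represented by its brightest probe set. The fit was tested on simulated data. Arrays have no read depth, and their number limits the precision.

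The members and lists were chosen with earlier results of these data known. All members were named, with the 6 pathway and 3 receptor genes of smallest p by brightest probe set. Ddr1, P4hb, Sparc and Efemp1 were given besides for their other probe sets, and Ltbp2 for its large difference. Alternatives were other pseudocounts, scalings, filters and variance models, the chip letter as a block, averaging all probe sets of a gene, and omitting each array in turn. Same-lettered arrays did not deviate together (correlations of -0.09, -0.04 and -0.05 for A, B and C). Figures were drawn with matplotlib 3.10.9.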

Additional observations from a re-analysis of the deposited data

How the results depend on the processing

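All alternatives were planned but 1, chosen after seeing the data: leaving out Col12a1, below the control level on all arrays, gave a median of 0.0091 over 8 genes. Over 134 values of the 9 genes, 0 passed limma's adjusted test and 121 kept their direction. The sign of Eln turned without quantile normalization (-0.057), with median centring (-0.11) and without runner C. Col3a1 turned with median centring (-0.0232), and Lox with the mean of its probe sets (0.13). Ranges as arrays were left out were -0.0238 to 0.11 for Eln, -0.18 to 0.0935 for Lox, -0.17 to 0.16 for Col1a2, -0.15 to 0.21 for Col5a2, -0.0641 to 0.14 for Col12a1 and -0.18 to 0.0191 for Serpinh1. The signs turned without non-runner B for Lox, Col1a2 and Col5a2, without runner A for Col1a2 and Col5a2, without non-runner A for Col12a1 and Serpinh1, and without non-runner C for Col12a1, whose values lie below the control level and carry no direction. The median of the 9 was -0.10 with median centring, against a median of -0.05 over all probe sets there, and -0.0345 to 0.14 as arrays were left out, with 0.14 without non-runner B. Over all probe sets, 0 to 4 were higher and 0 to 1 lower by limma as arrays were left out, with 1 of each without non-runner A and 4 higher without non-runner C, and 0 of the pathway list were called in any alternative. With the chip letter as a replicate block, 0 of the 20 probe sets and 0 of all were called, with 357 of all at an unadjusted p under 0.05 and 423 without the block. Depth does not apply to arrays; 2 of the 20 probe sets lay below the control level on all arrays, 1 more on 1 array, and their differences are the least reliable.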
